A study of Mus musculus with 9 samples.

Results

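The genes described here are 10 matrix proteases, protease inhibitors and receptors, taken from the deposited expression values by gene symbol. They comprise the matrix metalloproteinases (MMPs) Mmp2, Mmp3, Mmp9, Mmp13 and Mmp14, the tissue inhibitors of metalloproteinases (TIMPs) Timp1, Timp2 and Timp3, the protease urokinase (Plau) and its receptor (Plaur). Of these 10 genes, 9 were found among the 16399 genes listed for each library, and Timp3 was not analysed here. MC38 is a mouse colon carcinoma line, used here with a GFP and luciferase label in all 3 groups. MC38-P is the parental line, and MC38-LM3a and MC38-LM3b are liver metastatic derivatives obtained independently of each other by repeated injection of the cells into the spleen of C57BL/6 mice and recovery of tumor cells from the liver. RNA came from untreated cells in culture, with no liver tissue, and the groups had 3 libraries each. Each derivative is thus a single selected cell population. The p-values measure the spread between libraries of the same line, pooled over the 3 lines. The sample labels do not tie the libraries to separate cultures.

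Secreted and membrane-bound proteases remodel the matrix around tumor cells. MMPs are made as inactive proenzymes, and TIMPs bind their active sites. Mmp14, a membrane-anchored collagenase, activates pro-Mmp2 in a complex that contains Timp2, so that Timp2 serves both as an inhibitor and as an adaptor. Urokinase bound to its receptor converts plasminogen to plasmin, which degrades fibrin and can activate several pro-MMPs, and this step is opposed by serpins, among them Serpinb2 (PAI-2). In tumors much of this system is supplied by fibroblasts and leukocytes as well as by the cancer cells.

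Values were in TPM, the abundance unit that scales each gene to its length and each library to the same total of transcripts. Libraries held 10875 to 11218 genes at 1 TPM or more, and the number of reads behind each value is unknown. The labels call the cells epithelial and their tissue colon. The keratin genes Krt8 and Krt18 lay at 707.1 TPM or more in every library, whereas Cdh1 (E-cadherin) did not exceed 0.08 TPM and Vil1 (villin) did not exceed 0.13 TPM. In 1 MC38-P and 1 MC38-LM3a library, both numbered replicate 3, the difference from the group mean followed transcript length in opposite directions, with a Spearman correlation across 11096 genes of -0.62 in MC38-P and 0.64 in MC38-LM3a. Differences from a group mean balance within the group, so the other libraries of these groups must on average go the opposite way. They had 0.51 and 0.41 in MC38-P and -0.55 and -0.51 in MC38-LM3a, and the MC38-LM3b libraries lay between -0.01 and 0.02.

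Levels of the 9 genes fell into a high and a low class in every library. Timp2, Plaur, Timp1, Mmp14 and Plau lay between 60.3 and 251.7 TPM, and Mmp3, Mmp13, Mmp9 and Mmp2 between 0.06 and 4.54 TPM. In MC38-P the order of means was Plaur, Timp1, Timp2, Mmp14 and Plau. Libraries of Plaur, Timp1 and Timp2 overlapped in level, so that these neighbours did not differ beyond their spread, while Mmp14 and Plau lay apart from them and from each other. In both derivatives Timp2 had the highest mean and Plaur the next, with overlapping libraries in MC38-LM3a but not in MC38-LM3b. Mmp14 (145.0 to 146.2 TPM) overlapped with Timp1 (143.6 to 157.8 TPM) in MC38-LM3b.

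**Figure D1:**
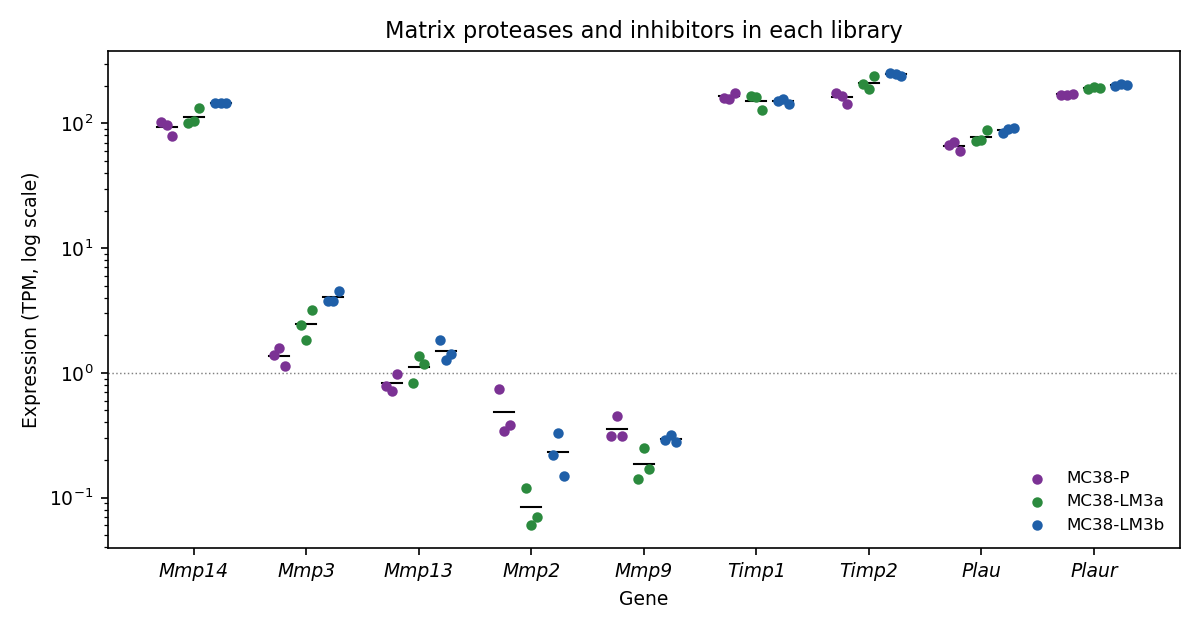
Expression of the 9 genes in each library, in TPM on a log axis. Points are libraries (3 per line), black bars are group means and the dotted line marks 1 TPM. Timp1, Timp2, Plau, Plaur and Mmp14 lie at 60.3 TPM or more, and Mmp2 and Mmp9 stay under 1 TPM throughout.

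Promoter sequences are shown for the 4 genes with a copy of the AP-1 letters, since 3 of them are MMP genes of a single cluster that did not all differ from MC38-P in the same direction. AP-1, a dimer of Fos and Jun proteins, is a textbook regulator of stromelysin, collagenase and urokinase receptor genes. Each line gives the 250 bases before the start of the gene, from RefSeq on GRCm38.p6 and in the direction of the gene. A promoter sequence was found for 6 of the 9 genes. The regions are chr9:7445572-7445821 for Mmp3, chr9:7272264-7272513 for Mmp13, chr9:7502092-7502341 for Mmp10 and chr7:24462233-24462482 for Plaur, all on the plus strand. Capitals mark the AP-1 letters TGANTCA, searched on both strands, and the TATA letters TATAAA.
Mmp3: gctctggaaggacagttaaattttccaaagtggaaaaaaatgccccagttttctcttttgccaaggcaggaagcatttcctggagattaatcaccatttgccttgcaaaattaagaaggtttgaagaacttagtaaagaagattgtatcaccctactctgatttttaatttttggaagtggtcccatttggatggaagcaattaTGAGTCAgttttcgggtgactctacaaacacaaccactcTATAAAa
Mmp13: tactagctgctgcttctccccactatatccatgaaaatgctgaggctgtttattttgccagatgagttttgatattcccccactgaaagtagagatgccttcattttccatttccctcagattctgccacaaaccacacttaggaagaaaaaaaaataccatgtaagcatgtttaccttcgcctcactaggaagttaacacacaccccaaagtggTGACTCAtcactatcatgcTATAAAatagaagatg
Mmp10: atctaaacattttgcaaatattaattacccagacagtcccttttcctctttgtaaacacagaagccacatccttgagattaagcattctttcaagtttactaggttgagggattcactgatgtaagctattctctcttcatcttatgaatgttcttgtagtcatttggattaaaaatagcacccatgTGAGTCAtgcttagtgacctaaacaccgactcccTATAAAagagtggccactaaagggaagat
Plaur: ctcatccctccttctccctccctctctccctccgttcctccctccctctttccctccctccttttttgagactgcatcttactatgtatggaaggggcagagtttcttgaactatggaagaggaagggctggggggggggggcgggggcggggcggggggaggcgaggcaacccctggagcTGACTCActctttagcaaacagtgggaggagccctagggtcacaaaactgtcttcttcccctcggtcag
The AP-1 letters begin 46 bases before the start of Mmp3, 35 before Mmp13, 63 before Mmp10 and 69 before Plaur. TATAAA follows in the 3 MMP promoters, at 7, 16 and 29 bases before the start of Mmp3, Mmp13 and Mmp10, and is not found in that of Plaur. The promoters of Mmp14, Timp1 and Timp2 hold neither motif in these 250 bases. Of 32851 mouse promoters of this length, 6.75% hold TGANTCA and 12.4% hold TATAAA. These matches describe the sequence, and binding was not measured.

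The first comparison asks how the genes differ between MC38-LM3a and MC38-P. Mean levels in MC38-LM3a were 1.81 times the parental level for Mmp3, 1.30 times for Timp2 and 1.12 times for Plaur, and these were the genes that passed the test. Each of the 7 genes that reached 1 TPM in at least 3 libraries was tested by limma on log2(TPM + 1), with Benjamini-Hochberg adjustment over all 11287 tested genes, and a fold change on that scale understates the change of low genes. Of the 7 genes, 3 were higher at an adjusted p under 0.05 (Mmp3, Timp2 and Plaur) and 0 were lower, against 14.1% and 13.8% of all tested genes, respectively. At an absolute log2 fold change over 1 in addition, 0 of the 7 passed, against 2.89% of all tested genes. The largest absolute log2 fold change was 0.54, and 5 of the 7 had an unadjusted p under 0.05, as had 4347 of all tested genes (38.5%). Without both replicate 3 libraries, 2 of the 7 passed (Timp2 and Plaur, both higher), where 18.3% of all tested genes were higher and 45.4% lower. The median log2 fold change of the 7 genes was 0.24 and that of all tested genes 0.00.

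In MC38-LM3b compared with MC38-P, 6 of the 7 genes were higher (Mmp3, Mmp13, Mmp14, Timp2, Plau and Plaur), against 35.6% of all tested genes. Mean levels were 2.94 times the parental level for Mmp3, 1.82 times for Mmp13, 1.56 times for Mmp14, 1.53 times for Timp2, 1.34 times for Plau and 1.18 times for Plaur. None were lower, against 11.2%, and 1 gene, Mmp3, passed both thresholds, against 3.93%. The median log2 fold change was 0.45 for the 7 genes and 0.21 for all tested genes. Centring each library on its median changed the split of all called genes from 4013 higher and 1263 lower to 2586 higher and 2981 lower. After that centring the log2 fold changes were 0.86 for Mmp3, 0.42 for Mmp14, 0.39 for Timp2, 0.19 for Plau, 0.23 for Mmp13 and 0.02 for Plaur, of which the first 4 passed the adjusted threshold and the last 2 did not (adjusted p 0.245 and 0.881, respectively). Mmp13 entered the tests through its values in the derivatives, since no MC38-P library reached 1 TPM, so the count of higher genes is given as a description.

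The test of the difference between MC38-LM3b and MC38-LM3a passed for 0 of the 7 genes, against 0.0354% of all tested genes higher, 0.0177% lower and 0.0266% past both thresholds. By limma, 3 of the 7 (Mmp3, Mmp14 and Timp2) had an unadjusted p under 0.05, as had 4296 of all 11287 tested genes (38.1%). Without MC38-LM3a replicate 3, 4 genes passed (Mmp3, Mmp14, Timp2 and Plau, all higher in MC38-LM3b), and 6358 of all tested genes did (56.3%). Of all tested genes, 52.1% were higher and 4.23% lower in that fit. The median log2 fold change there was 0.27 for the 7 genes and 0.29 for all tested genes. After centring on the median 0 of the 7 passed, beside 0.106% of all tested genes, with medians of 0.02 and -0.01. With correction for GC content and length 0 of the 7 also passed, beside 0.207%, with medians of 0.09 and 0.00. Across 11096 genes, differences between the derivatives followed transcript length (Spearman rho 0.61), against -0.11 for MC38-LM3a and 0.22 for MC38-LM3b compared with MC38-P. The 3 comparisons use the same libraries in pairs, so that MC38-P enters both comparisons of a derivative with the parental line.

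**Figure D2:**
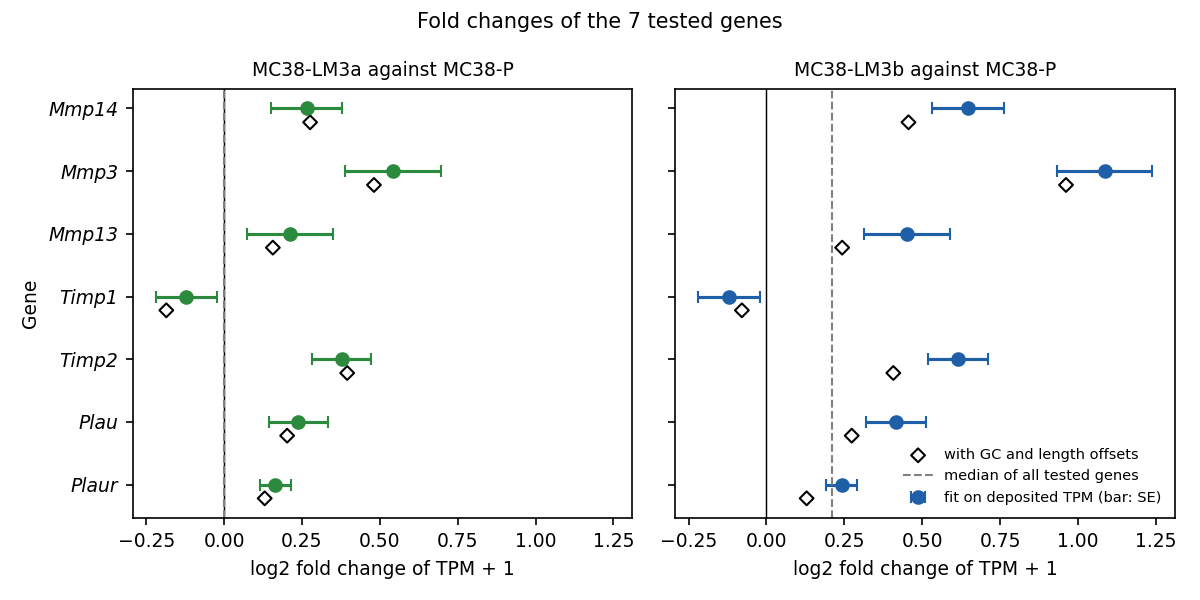
Log2 fold change of TPM + 1 for the 7 tested genes in each derivative against MC38-P. Filled circles with bars are estimates with their SE, open diamonds are estimates once GC content and transcript length were corrected, and the dashed line is the median of all tested genes. Timp1 lies below 0 in both comparisons, and Mmp3 has the largest value in each.

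Mmp14, which encodes the membrane-type collagenase MT1-MMP, was the most abundant of the 18 MMP genes listed. Its level was 102.2, 97.7 and 79.8 TPM for MC38-P, 100.3, 104.1 and 133.0 TPM for MC38-LM3a and 145.8, 146.2 and 145.0 TPM for MC38-LM3b. The MC38-LM3b libraries lay close together and above all libraries of the other groups, while MC38-LM3a overlapped with MC38-P. The mean was 93.2 ± 11.8 TPM (SD, n = 3) for MC38-P, 112 ± 17.9 TPM for MC38-LM3a and 146 ± 0.626 TPM for MC38-LM3b, or 1.56 times MC38-P. The log2 fold change was 0.65 (SE 0.115; adjusted p 0.00135) for MC38-LM3b and 0.26 (SE 0.115; adjusted p 0.115) for MC38-LM3a. Without replicate 3 of MC38-P and of MC38-LM3a, the MC38-LM3a value was 0.03. With correction for GC content and transcript length it was 0.28 (adjusted p 0.00224).

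Mmp3, the stromelysin that cleaves proteoglycans and activates other pro-MMPs, was much less abundant. Its level was 1.39, 1.58 and 1.14 TPM for MC38-P, 2.44, 1.85 and 3.16 TPM for MC38-LM3a and 3.80, 3.74 and 4.54 TPM for MC38-LM3b. The 3 groups did not overlap. Means rose from a parental value of 1.37 ± 0.221 TPM (SD, n = 3) to 2.48 ± 0.656 TPM for MC38-LM3a and 4.03 ± 0.446 TPM for MC38-LM3b, 1.81 and 2.94 times the parental mean. The log2 fold change was 0.54 (SE 0.153; adjusted p 0.0226) for MC38-LM3a and 1.09 (SE 0.153; adjusted p 3.361e-04) for MC38-LM3b. The call in MC38-LM3a was lost in 6 of 19 alternative analyses, and without both replicate 3 libraries its value was 0.33 (adjusted p 0.0503). Correction for GC content and length gave 0.48 and 0.96, so that the MC38-LM3b difference no longer passed the fold threshold.

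Mmp13, the main interstitial collagenase of the mouse, stayed near 1 TPM. Its level was 0.78, 0.71 and 0.98 TPM for MC38-P, 0.83, 1.36 and 1.17 TPM for MC38-LM3a and 1.82, 1.26 and 1.42 TPM for MC38-LM3b. MC38-LM3b did not overlap with MC38-P, and MC38-LM3a did. The log2 fold change in MC38-LM3b was 0.45 (SE 0.139; adjusted p 0.0219), and in MC38-LM3a 0.21 (SE 0.139; adjusted p 0.294). No MC38-P library reached 1 TPM, so Mmp13 was tested only because of its values in the derivatives. These results are therefore given as a description. The MC38-LM3b call was lost in 8 of 19 alternatives, among them each of the 3 rescalings.

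The gelatinases Mmp2 and Mmp9, which cleave basement membrane collagen, were below the level of testing in all 9 libraries. Mmp2 was listed at 0.74, 0.34 and 0.38 TPM for MC38-P, 0.12, 0.06 and 0.07 TPM for MC38-LM3a and 0.22, 0.33 and 0.15 TPM for MC38-LM3b. Mmp9 was listed at 0.31, 0.45 and 0.31 TPM for MC38-P, 0.14, 0.25 and 0.17 TPM for MC38-LM3a and 0.29, 0.32 and 0.28 TPM for MC38-LM3b. Both were lower in MC38-LM3a than in every MC38-P library. In a fit without the filter on low values, over 16395 genes, the MC38-LM3a difference on the log2(TPM + 1) scale was -0.45 for Mmp2 (SE 0.0966; adjusted p 0.0123) and -0.19 for Mmp9 (SE 0.0519; adjusted p 0.0319). For MC38-LM3b it was -0.26 (adjusted p 0.0687) and -0.06 (adjusted p 0.386), respectively. In every library Mmp14 lay far above its substrate Mmp2, whose highest level was 0.74 TPM.

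Timp2, the inhibitor that takes part in pro-Mmp2 activation, was the TIMP that passed the test in both derivatives. Its level was 175.3, 167.0 and 143.8 TPM for MC38-P, 206.4, 187.8 and 239.1 TPM for MC38-LM3a and 251.7, 250.6 and 241.3 TPM for MC38-LM3b. No 2 groups overlapped. Means were 162 ± 16.4, 211 ± 26.0 and 248 ± 5.70 TPM (SD, n = 3), 1.30 and 1.53 times MC38-P in the derivatives. The log2 fold change was 0.38 (SE 0.0953; adjusted p 0.0133) for MC38-LM3a and 0.61 (SE 0.0953; adjusted p 6.277e-04) for MC38-LM3b. Both calls were kept in all 20 alternatives, with values from 0.20 to 0.46 and from 0.39 to 0.67, respectively.

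Timp1, an inhibitor of many secreted MMPs, did not pass the test in any comparison. Its level was 159.3, 158.2 and 175.7 TPM for MC38-P, 165.8, 163.4 and 126.9 TPM for MC38-LM3a and 152.2, 157.8 and 143.6 TPM for MC38-LM3b. The MC38-LM3b libraries lay just below those of MC38-P, and MC38-LM3a overlapped with MC38-P. The log2 fold change was -0.12 in both comparisons (SE 0.0991; adjusted p 0.413 for MC38-LM3a and 0.334 for MC38-LM3b). MC38-LM3a replicate 3 had 0.771 times the mean of the other MC38-LM3a libraries, and without it the MC38-LM3a value was 0.00. Timp1 was 0.05 (adjusted p 0.347) in MC38-LM3a against MC38-P and -0.12 (adjusted p 0.0244) in MC38-LM3b against MC38-LM3a without both replicate 3 libraries. At 883 bases, Timp1 has the shortest transcript of the 9 genes, and Timp2, at 3709 bases, the longest. With correction for GC content and length, Timp1 was lower in MC38-LM3a by the test (-0.19; adjusted p 0.0222) and not in MC38-LM3b (-0.08; adjusted p 0.271).

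Plau encodes urokinase, a serine protease that activates plasminogen. Its level was 66.7, 71.5 and 60.3 TPM for MC38-P, 72.0, 74.0 and 89.1 TPM for MC38-LM3a and 83.4, 90.7 and 91.4 TPM for MC38-LM3b. Both derivatives lay above every MC38-P library. Means were 66.2 ± 5.62, 78.4 ± 9.33 and 88.5 ± 4.41 TPM (SD, n = 3). The log2 fold change was 0.42 (SE 0.0953; adjusted p 0.00547) for MC38-LM3b and 0.24 (SE 0.0953; adjusted p 0.0890) for MC38-LM3a. With correction for GC content and length the MC38-LM3b value was 0.27 (adjusted p 0.00427). For MC38-LM3a it was 0.20 (adjusted p 0.0229) with that correction and 0.08 (adjusted p 0.235) without both replicate 3 libraries.

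Plaur, the receptor that holds urokinase at the cell surface, had an SD of 3.32 TPM or less in every line. Its level was 170.2, 170.2 and 173.0 TPM for MC38-P, 188.4, 194.8 and 192.5 TPM for MC38-LM3a and 198.7, 204.9 and 203.9 TPM for MC38-LM3b. The groups did not overlap. Means were 171 ± 1.60, 192 ± 3.24 and 202 ± 3.32 TPM (SD, n = 3). The log2 fold change was 0.16 (SE 0.0504; adjusted p 0.0329) for MC38-LM3a and 0.24 (SE 0.0504; adjusted p 0.00333) for MC38-LM3b. The MC38-LM3b value is close to the 0.21 median of all tested genes, and after centring the libraries on their median it was 0.02. With correction for GC content and length it was 0.13 (adjusted p 0.0287). The MC38-LM3a call was lost in 11 of 20 alternatives.

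Sums and ratios within a library describe the balance of proteases and inhibitors, without a test. The 5 MMPs described here summed to 105.4, 100.8 and 82.6 TPM for MC38-P, 103.9, 107.6 and 137.6 TPM for MC38-LM3a and 151.9, 151.9 and 151.4 TPM for MC38-LM3b, and Mmp14 made up 96.8%, 96.7% and 96.0% of this sum. Over all 18 listed MMP genes, Mmp10 among them, the Mmp14 share was 72.3% ± 2.00, 82.0% ± 1.17 and 82.7% ± 0.965 (SD, n = 3), with both derivatives above every MC38-P library. Timp1 and Timp2 together gave means of 326 ± 7.71 (SD, n = 3), 363 ± 10.8 and 399 ± 12.4 TPM. The ratio of the 5 MMPs to Timp1 and Timp2 was 0.315, 0.310 and 0.259 for MC38-P, 0.279, 0.306 and 0.376 for MC38-LM3a and 0.376, 0.372 and 0.393 for MC38-LM3b. MC38-LM3b lay above MC38-P throughout, and MC38-LM3a overlapped with MC38-P. The ratio of Mmp14 to Timp2 was 0.574 ± 0.0165, 0.532 ± 0.0400 and 0.588 ± 0.0114. MC38-P overlapped with each derivative in this ratio, and MC38-LM3a lay below MC38-LM3b. Timp2 relative to Timp1 was 0.992 ± 0.152 for MC38-P, 1.43 ± 0.400 for MC38-LM3a and 1.64 ± 0.0476 for MC38-LM3b. The MC38-LM3a libraries gave 1.24, 1.15 and, in replicate 3, 1.88. Timp2 made up 49.6% ± 4.00, 58.1% ± 6.35 and 62.1% ± 0.687 of the TIMP transcripts.

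**Figure D3:**
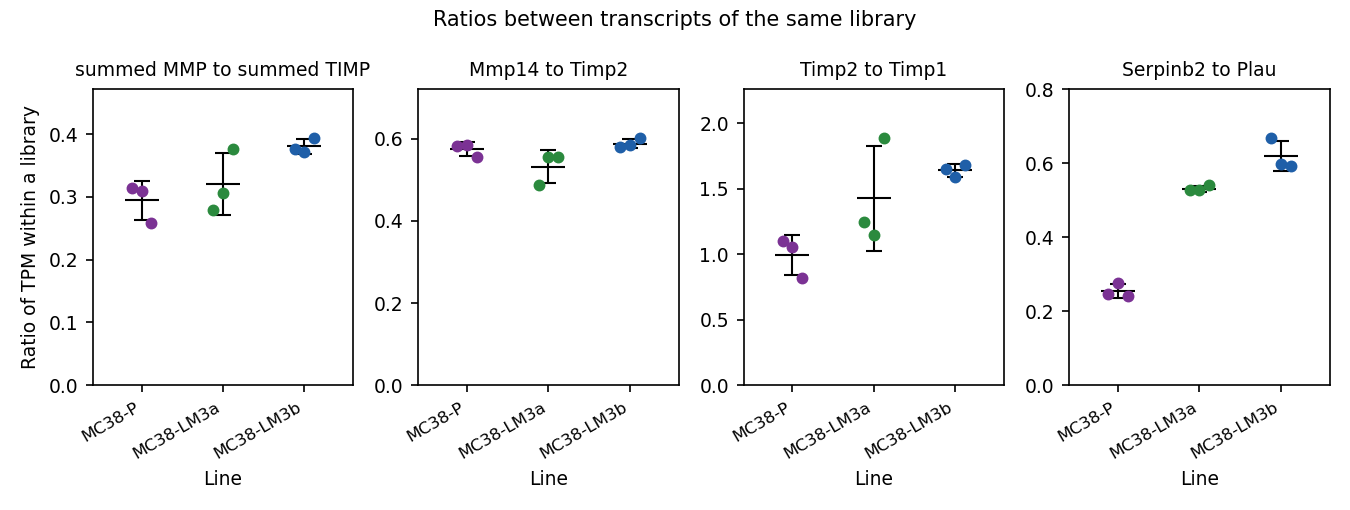
Ratios of TPM within each library, the first panel with the 5 MMPs over Timp1 and Timp2. Points are libraries (3 per line), horizontal bars are means and error bars are SDs. The ratio of Mmp14 to Timp2 in MC38-P overlaps with that in each derivative, and that of Serpinb2 to Plau is 0.276 or less in MC38-P and 0.527 or more in the derivatives.

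The other genes of pericellular proteolysis were described by 5 lists of 91 genes, of which 77 were listed and 36 tested. In MC38-LM3a 9 were higher, 7 were lower and 20 did not pass, and in MC38-LM3b 16 were higher, 6 were lower and 14 did not pass. Over all tested genes, 14.1% were higher and 13.8% lower in MC38-LM3a, and 35.6% higher and 11.2% lower in MC38-LM3b. After centring on the median, 10 of the 36 were higher and 10 lower in MC38-LM3b, against 22.9% and 26.4% of all tested genes, and with correction for GC content and length 14 were higher and 11 lower, against 29.1% and 28.8%. Without both replicate 3 libraries, 12 were higher and 19 lower in MC38-LM3a, against 18.3% and 45.4%. The median log2 fold change of the 36 genes was 0.07 and 0.22, respectively, beside 0.00 and 0.21 for all tested genes. Without both replicate 3 libraries the MC38-LM3a medians were -0.18 and, for all tested genes, -0.15, and after centring the MC38-LM3b medians were both -0.01. Between the derivatives 0 of the 36 passed in limma, and 15 had an unadjusted p under 0.05, beside 38.1% of all tested genes. Without MC38-LM3a replicate 3, 23 passed, beside 56.3% of all tested genes. Of these, 19 were higher and 4 lower in MC38-LM3b, beside 52.1% and 4.23% of all tested genes.

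Among the other MMPs, 4 of 18 were tested, and 2 were lower in each derivative, beside 13.8% and 11.2% lower among all tested genes. After centring, 3 of the 4 were lower in each derivative, beside 20.1% and 26.4% of all tested genes. With correction for GC content and length 3 were also lower in each, beside 24.9% and 28.8%. Without both replicate 3 libraries all 4 were lower in MC38-LM3a, where 45.4% of all tested genes were lower. Mmp19, which is expressed in many resting tissues, fell from a parental mean of 4.45 ± 0.344 TPM (SD, n = 3) to 1.41 ± 0.0600 TPM for MC38-LM3a and 1.05 ± 0.312 TPM for MC38-LM3b. Its log2 fold changes were -1.18 (SE 0.129; adjusted p 9.807e-05) and -1.42 (SE 0.129; adjusted p 2.162e-05). Mmp10 (stromelysin-2), named after its values were seen because it lies close to Mmp3, fell as well. Its level was 14.6, 15.5 and 16.1 TPM for MC38-P, 7.50, 7.02 and 8.26 TPM for MC38-LM3a and 8.97, 8.05 and 8.73 TPM for MC38-LM3b. For Mmp10 the log2 fold change was -0.93 (SE 0.102; adjusted p 9.614e-05) and -0.78 (SE 0.102; adjusted p 2.256e-04), respectively. Along chromosome 9, the RefSeq order is Mmp13, Mmp12, Mmp1b, Mmp3, Mmp1a and Mmp10. The stromelysin genes Mmp3 and Mmp10 differed from MC38-P in opposite directions in both derivatives, also after centring. The ratio of Mmp3 to Mmp10 was 0.0893 ± 0.0163 for MC38-P, 0.324 ± 0.0595 for MC38-LM3a and 0.469 ± 0.0484 for MC38-LM3b. Mmp12, Mmp1a and Mmp1b lay at 1.77 TPM or less in all libraries and were not tested.

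The list of other plasminogen system genes had 10 tested members, of which 5 were higher and 2 lower in MC38-LM3a and 6 were higher and 2 lower in MC38-LM3b, beside 14.1% and 13.8%, and 35.6% and 11.2%, of all tested genes. After centring, 3 were higher and 3 lower in MC38-LM3b, beside 22.9% and 26.4% of all tested genes. The median log2 fold change there was 0.05 in place of 0.27, and that of all tested genes -0.01 in place of 0.21. Serpinb2, an inhibitor of urokinase, rose from a parental mean of 16.9 ± 2.64 TPM (SD, n = 3) to 41.7 ± 5.60 TPM for MC38-LM3a and 54.8 ± 0.812 TPM for MC38-LM3b. Its log2 fold changes were 1.26 (SE 0.120; adjusted p 3.865e-05) and 1.65 (SE 0.120; adjusted p 4.443e-06). Relative to Plau, Serpinb2 was 0.247, 0.276 and 0.240 for MC38-P, 0.527, 0.527 and 0.541 for MC38-LM3a and 0.668, 0.599 and 0.594 for MC38-LM3b.

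Serpine2 (protease nexin-1), which inhibits urokinase and thrombin, fell from 35.5 ± 4.01 TPM (SD, n = 3) to 11.8 ± 0.876 TPM for MC38-LM3a and 11.0 ± 0.291 TPM for MC38-LM3b, with log2 fold changes of -1.51 (adjusted p 4.750e-06) and -1.60 (adjusted p 2.279e-06). Mrc2, a collagen uptake receptor that associates with the urokinase receptor, fell from 15.5 ± 1.98 TPM to 4.02 ± 0.932 and 4.44 ± 0.701 TPM, with log2 fold changes of -1.72 (adjusted p 3.086e-05) and -1.60 (adjusted p 4.032e-05). Lrp1, which clears complexes of urokinase and its inhibitors, was 50.3 ± 11.7, 80.7 ± 27.9 and 123 ± 2.50 TPM. Its log2 fold changes were 0.65 (adjusted p 0.0444) and 1.30 (adjusted p 8.929e-04), and 0.81 and 0.89 after correction for GC content and length, for a transcript of 14888 bases. Without both replicate 3 libraries, the MC38-LM3a value of Lrp1 was 0.18 (adjusted p 0.00334).

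Of 4 tested genes among other protease inhibitors, Slpi, which inhibits leukocyte serine proteases, fell from 106 ± 11.7 TPM (SD, n = 3) to 43.5 ± 6.67 TPM for MC38-LM3a and 26.9 ± 2.05 TPM for MC38-LM3b, with log2 fold changes of -1.27 (adjusted p 3.659e-05) and -1.93 (adjusted p 1.503e-06). Reck, a membrane-anchored MMP inhibitor, rose from 2.12 ± 0.483 TPM to 3.53 ± 0.687 and 4.53 ± 0.202 TPM, with log2 fold changes of 0.54 (adjusted p 0.0199) and 0.84 (adjusted p 0.00128). Without both replicate 3 libraries, the MC38-LM3a value of Reck was 0.31 (adjusted p 0.0352). In total 2 of the 4 were higher and 1 lower in MC38-LM3a, and 1 was higher and 1 lower in MC38-LM3b, beside 14.1% and 13.8%, and 35.6% and 11.2%, of all tested genes. With correction for GC content and length 2 were higher and 1 lower in MC38-LM3b (29.1% and 28.8% of all tested genes). Without both replicate 3 libraries the MC38-LM3b counts were also 2 and 1 (46.0% and 19.4%). After centring 1 was higher and 1 lower in MC38-LM3a (19.8% and 20.1%).

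Of 11 tested ADAM and ADAMTS genes, 1 was higher and 1 lower in MC38-LM3a, beside 14.1% and 13.8% of all tested genes. In MC38-LM3b 6 were higher and 0 lower, beside 35.6% and 11.2%. Centring gave 3 higher and 2 lower in MC38-LM3a (19.8% and 20.1% of all tested genes). Correction for GC content and length gave 4 and 2 there (26.1% and 24.9%). The median of the 11 was 0.45 in MC38-LM3b and that of all tested genes 0.21. After centring, 3 were higher and 1 lower in MC38-LM3b, beside 22.9% and 26.4% of all tested genes. The median of the 11 was then 0.23 and that of all tested genes -0.01. Without both replicate 3 libraries 1 was higher and 7 were lower in MC38-LM3a (18.3% and 45.4% of all tested genes). In that fit 8 were higher and 1 lower in MC38-LM3b (46.0% and 19.4%). Adam9, a membrane-anchored sheddase, rose from 78.8 ± 12.1 TPM (SD, n = 3) to 125 ± 26.7 and 163 ± 0.540 TPM, with log2 fold changes of 0.65 (adjusted p 0.00599) and 1.05 (adjusted p 2.581e-04). Without both replicate 3 libraries, these values of Adam9 were 0.35 and 0.92. Its MC38-LM3b value was 0.83 after centring and 0.83 with correction for GC content and length. The MC38-LM3b difference passed the fold threshold in none of these fits. Among 7 tested activators and other matrix-cleaving enzymes, 1 was higher and 1 lower in MC38-LM3a, and 3 were higher and 1 lower in MC38-LM3b, beside 14.1% and 13.8%, and 35.6% and 11.2%, of all tested genes. In MC38-LM3a these counts were 3 and 3 with correction for GC content and length (26.1% and 24.9% of all genes) and 3 and 4 without both replicate 3 libraries (18.3% and 45.4%). In MC38-LM3b they were 3 and 3 with the correction (29.1% and 28.8%) and 3 and 2 after centring (22.9% and 26.4%). The secreted serine proteases Htra1 and Htra3 went opposite ways. Htra1 rose from 183 ± 7.08 TPM to 243 ± 9.98 and 254 ± 2.84 TPM, with log2 fold changes of 0.41 (adjusted p 4.171e-04) and 0.47 (adjusted p 1.188e-04), the latter 0.25 (adjusted p 0.0142) after centring. Htra3 fell from 20.3 ± 2.17 TPM to 11.4 ± 0.768 and 11.1 ± 1.17 TPM, with log2 fold changes of -0.78 (adjusted p 6.374e-04) and -0.82 (adjusted p 3.311e-04).

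**Figure D4:**
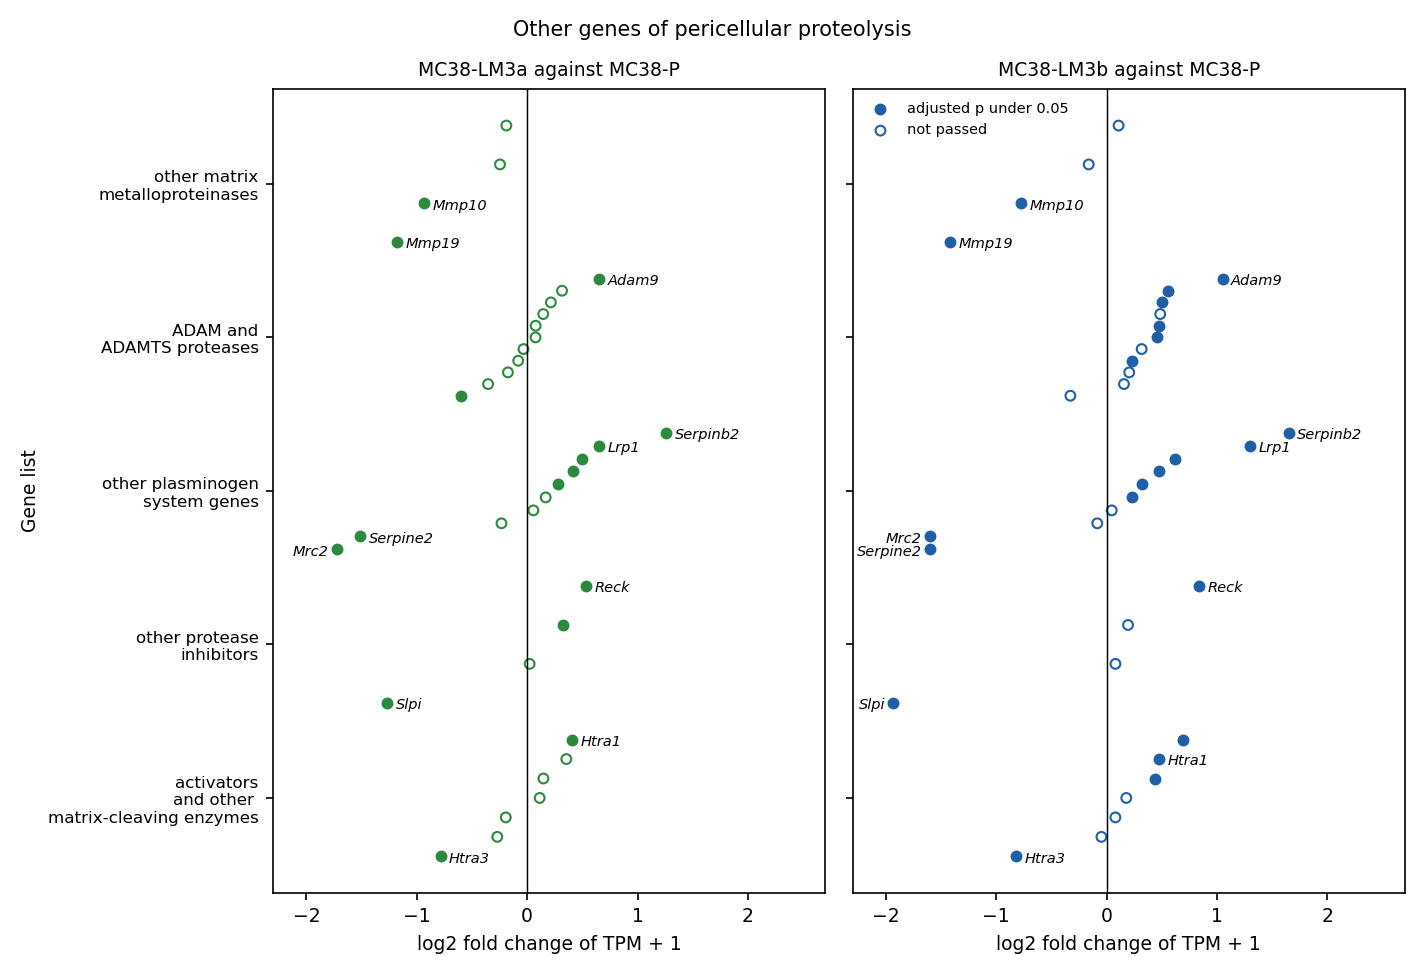
Log2 fold change of TPM + 1 for the 36 tested genes of the 5 lists, in each derivative against MC38-P. Each circle is a gene, filled where the adjusted p is under 0.05. Serpinb2, Lrp1 and Adam9 lie highest in both panels, and Mmp19, Serpine2, Mrc2 and Slpi fell in both.

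Markers of cells that could accompany tumor cells were summed per library. Of 12 fibroblast and stellate cell markers 10 were listed, with sums of 140 to 177 TPM for MC38-P, 56.0 to 75.4 TPM for MC38-LM3a and 68.3 to 74.6 TPM for MC38-LM3b, led by Col3a1. Of the 10, 5 were tested, with 3 lower and 0 higher in MC38-LM3a, beside 13.8% lower and 14.1% higher among all tested genes. In MC38-LM3b 3 were lower and 1 higher, beside 11.2% lower and 35.6% higher. Col1a1 (means of 14.0, 4.07 and 4.30 TPM) and Acta2 (4.14, 1.77 and 1.56 TPM) were lower in both derivatives with Col3a1, and Pdgfrb (1.54, 2.13 and 3.66 TPM) was higher in MC38-LM3b. Col1a2 and Dcn, which such cells express strongly, stayed at or under 0.13 TPM. Of 12 macrophage markers 4 were listed, with sums of 38.8 to 40.2, 48.8 to 53.7 and 55.6 to 60.0 TPM, led by Cd68. The 2 tested, Cd68 and Cd14 (means of 10.7, 14.4 and 15.0 TPM), were higher in both derivatives, beside 14.1% and 35.6% of all tested genes. Csf1r stayed at or under 0.14 TPM and Lyz2 at or under 0.28 TPM. The neutrophil list (5 of 9 listed, led by Ly6g) summed to 8.19 TPM or less, the hepatocyte list (6 of 10, led by Apoa2) to 4.29 TPM or less, the endothelial list (6 of 9, led by Cdh5) to 2.07 TPM or less and the T cell list (2 of 8, led by Lck) to 0.53 TPM or less. The colon epithelial list (11 of 11, led by Krt8) summed to 2004 to 2319 TPM for MC38-P, 1593 to 1812 TPM for MC38-LM3a and 1585 to 1630 TPM for MC38-LM3b. Of these 11, 6 were tested, with 2 higher and 4 lower in MC38-LM3a, beside 14.1% and 13.8% of all tested genes. In MC38-LM3b 0 were higher and 4 lower, beside 35.6% and 11.2%. Krt19 and Krt20 were higher in MC38-LM3a, with log2 fold changes of 0.39 (adjusted p 0.00358) and 0.55 (adjusted p 0.0344), respectively. Epcam (means of 5.76, 2.05 and 2.21 TPM) and Cdx2 (2.27, 0.63 and 0.41 TPM) were lower past both thresholds in each derivative. Cdx2 reached 1 TPM only in MC38-P libraries and Krt20 only in derivative libraries, so their tests are given as a description. The fibroblast, macrophage and colon epithelial sums moved with the groups, and their part in the differences above was not tested. In bulk RNA, fewer cells of a type and less RNA per cell cannot be told apart.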

How the data were processed

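Poly(A) RNA of 9 libraries, 3 per line, was sequenced by the authors on the DNBSEQ platform. The deposited values are TPM per gene, and the submitters' processing notes name HISAT and GRCm39; the quantification tool is not given in the sources used here. TPM hold no counts, so the depth is unknown and DESeq2, which the authors used, and edgeR could not be run. Groups came from the sample titles.

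Values were analysed as log2(TPM + 1), computed from the deposited TPM, in R 4.3.3 with limma 3.58.1. Genes that reached 1 TPM in 3 or more libraries (11287) entered 1 model of all 9 libraries, with trended empirical Bayes moderation and Benjamini-Hochberg adjustment over these genes. The thresholds were an adjusted p under 0.05 and, for both thresholds, an absolute log2 fold change over 1. GC content and transcript length came from the longest GENCODE M21 transcript, for 98.3% of tested genes, and were corrected by loess (span 0.3) in each library. Alternatives were another pseudocount (0.1), no filter or a filter of 5 TPM, the 2 groups alone, a replicate block, 3 rescalings, no variance trend and leaving out each library. Leaving out both replicate 3 libraries together was added after seeing the data.

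Members and lists were chosen with earlier results of these data known. Named were all members, in each pathway list the genes past both thresholds and the largest shared rise and fall, the top gene of each marker list, and the 3 genes most like each of Mmp3 and Timp2, while Mmp10 and the marker genes other than the top of each list were picked with their values known. On simulated data with a log2 change of 1 in 200 genes, the procedure recovered 180, 187 and 177, with 10, 8 and 9 false calls. These are for MC38-LM3a against MC38-P, MC38-LM3b against MC38-P and MC38-LM3b against MC38-LM3a, each run on 11287 genes. The simulated noise was independent between genes and equal across groups, without the length pattern of the replicate 3 libraries. Changes under 1, as for most of the genes described here, were not simulated.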

Additional observations from a re-analysis of the deposited data

How the results depend on the processing

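Fold changes of the 7 tested genes were recomputed under up to 20 alternatives. Of these values 358 kept their direction and their side of the threshold, 26 lost and 18 gained the call, and 12 changed sign, all 12 without a call in the original fit. The calls of Mmp3, Mmp14, Timp2 and Plau in MC38-LM3b and of Timp2 in MC38-LM3a were kept throughout. The sign changes were those of Timp1 in MC38-LM3a against MC38-P (-0.19 to 0.0035 in leave-one-out fits, the latter without MC38-LM3a replicate 3, and 0.052 without both replicate 3 libraries), and, between the derivatives, of Timp1 (-0.11 after quantile normalization, -0.22 after centring on the median, -0.12 to 0.069 in leave-one-out fits, where it was below 0 without MC38-LM3a replicate 3, MC38-LM3b replicate 1 (-0.0035) or MC38-LM3b replicate 2 (-0.03), and -0.12 with an adjusted p of 0.0244 without both replicate 3 libraries), Plau (-0.044 after centring) and Plaur (-0.15 after centring and -0.0014 with GC and length offsets, with or without the replicate block). The cause was not tested.

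In MC38-LM3a, 3 of the 7 genes were called, against the same number of them with no filter (5 in all, with Mmp2 and Mmp9, which enter there), 1 with the 2 groups alone, 1 with the replicate block, 5 after quantile normalization, 6 with GC and length offsets, 6 with the block and offsets, and 1 to 3 in leave-one-out fits (1 without MC38-P replicate 1 or MC38-LM3a replicate 1). Of all 11287 tested genes, 3160 were called in MC38-LM3a, 2105 with the 2 groups alone and 2200 with the replicate block. Called genes numbered 4738 after quantile normalization, 5654 with offsets (51.0%) and 5242 with the block and offsets. In MC38-LM3b, the gene past both thresholds (Mmp3) became 0 with the filter of 5 TPM, where it was not tested, and 0 after quantile normalization, centring, and offsets with or without the block. Between the derivatives, the count of 0 became 4 at most in leave-one-out fits (lowest 0) and 5 without both replicate 3 libraries. Correlations of residuals ran from -0.66 to 0.07 over 9 pairs of same-numbered libraries, and from -0.46 to 0.55 over 18 pairs of other numbers. Same-numbered pairs of MC38-P and MC38-LM3a had -0.34, -0.17 and -0.66. Same-numbered pairs with an MC38-LM3b library lay between 0.04 and 0.07, and pairs of other numbers with one between -0.06 and 0.01. Whether the numbers pair the samples cannot be told from these values, which also hold the length pattern of the replicate 3 libraries.

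Over all tested genes, those past both thresholds were 326 in MC38-LM3a and 550 with a pseudocount of 0.1, and 444 in MC38-LM3b and 705 with it. Between the derivatives they were 3, but 1 with the filter of 5 TPM, 3 to 19 in leave-one-out fits and 20 without both replicate 3 libraries. Genes at an adjusted p under 0.05 in MC38-LM3a were 3160, but 2105 with the 2 groups alone, 2167 to 4198 in leave-one-out fits, 5654 with offsets, 5242 with block and offsets and 7187 without both. Between the derivatives they were 6, but 2 with the pseudocount of 0.1, the filter of 5 TPM or the replicate block, 3 with the 2 groups alone, 10 after quantile normalization, 12 after centring, 23 with offsets, 3 to 6358 in leave-one-out fits (6358 without MC38-LM3a replicate 3) and 8032 without both. Of the 36 genes of the lists, 16 were called in MC38-LM3a, 26 with offsets and 31 without both. Between the derivatives 0 were called, 1 with offsets (Slpi), 0 to 23 in leave-one-out fits and 26 without both. DESeq2 and edgeR were not run. As the depth is unknown, values under 1 TPM (Mmp2, Mmp9) carry no measure of counting error.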

Other observations

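The genes whose log2(TPM + 1) was most like that of Mmp3 over the 9 libraries were Cnep1r1 (Pearson r 0.989), Dctn6 (0.988) and Sec1 (0.987), and those most like Timp2 were Chst14 (0.998), Slc8b1 (0.997) and Oas3 (0.997). Of 11280 genes compared, 496 had an r above 0.95 with Mmp3 and 1140 with Timp2. The libraries share their group means and the length pattern of the replicate 3 libraries, and the correlations are descriptions.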
